A study of Mus musculus with 12 samples.

Results

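Pericentral Wnt target genes are hepatocyte genes that lie under the control of Wnt and beta-catenin signaling around the central vein of the liver lobule. The group described here holds 10 genes, namely *Glul*, *Oat*, *Slc1a2*, *Rhbg*, *Lect2*, *Axin2*, *Lgr5*, *Tbx3*, *Rnf43* and *Znrf3*. They were taken by symbol from the 56205 Ensembl genes of a liver RNA-Seq count table, and all 10 were among the 13416 genes tested after a filter on low counts. They were chosen by name, with no threshold on a measured value but with earlier results of these data known.

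The comparison was between livers of *ob/ob* mice with and without ethionine. Both groups of 6 were B6.Cg-Lep ob/J mice, an obese strain without leptin, and per the study's methods were males aged 8 to 10 weeks at the start of treatment. OBOB_FLO mice received standard chow, and OBOB_Fibrotic mice received the same chow and ethionine, an ethyl analogue of methionine. The word fibrotic is taken from the sample titles as a group name, and the degree of fibrosis was not examined here. For ethionine-treated *ob/ob* mice the study names microvesicular steatosis and inflammation, and it saw no difference in *Col1a1*. The series describes 0.165% DL-ethionine supplied with the drinking water over 2 weeks, 1 label describes an injection of 0.15%, and the methods state a supply of 0.15% by water over 1 week. The obese state is shared by both groups, so no lean liver is part of the comparison. RNA came from whole liver, 1 library per mouse, and in such bulk samples fewer cells of a type and less RNA per cell cannot be told apart.

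In the liver lobule, blood flows from the portal vein to the central vein, and hepatocytes differ in gene expression along that path. Endothelial cells of the central vein secrete Wnt ligands and R-spondin 3. R-spondins bind Lgr receptors and remove the ubiquitin ligases Rnf43 and Znrf3, which otherwise take Frizzled receptors off the cell surface. Beta-catenin then accumulates and acts with Tcf factors on target genes. Some targets are metabolic, such as the glutamine synthetase gene *Glul*. Others, such as *Axin2*, *Rnf43* and *Znrf3*, encode proteins that dampen the pathway itself.

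Libraries held 17815568 to 24814263 counts. The tissue label was borne out by its markers, since all 12 hepatocyte markers not chosen for zone were tested and together held 81221 to 125800 CPM in each library (CPM being read counts scaled to a common library size). A pair of libraries stood apart. FLO replicate 3, described as male, held 3773 counts of the female-specific transcript *Xist* and 4 of the Y-linked gene *Ddx3y*, whereas no other library held over 4 counts of *Xist*. Fibrotic replicate 4 was the highest or lowest fibrotic library for 9 of the 10 genes, every one but *Glul*. Both are kept below, with values without them where a result rests on them.

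Of the 10 genes, 3 were lower and 1 was higher in fibrotic livers at a Benjamini-Hochberg adjusted p (FDR) of 0.01 or less and an absolute log2 fold change over 0.5. *Slc1a2* fell most, *Oat* and *Rnf43* followed, and *Znrf3* rose. *Glul*, the best known gene of the zone, had almost the same mean in both groups. Across all genes tested the same rule called 29.9%, with 14.0% lower and 15.9% higher, so 4 of 10 is near the background and is not a result about the group as a whole. The median log2 fold change was -0.17 over the 10 genes and 0.03 over all genes tested. The groups of libraries did not overlap for 3 of the 10, against 30.4% of all genes tested.

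**Figure D1:**
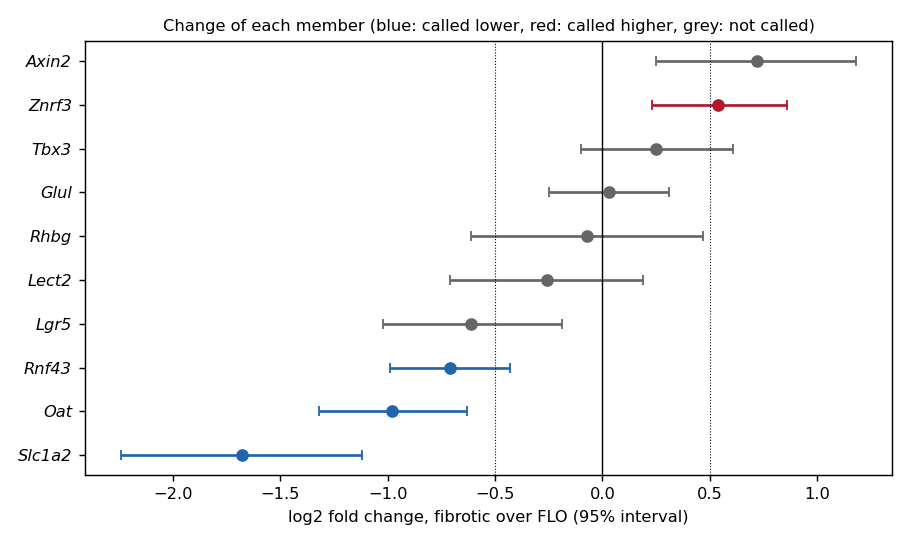
Log2 fold change of each of the 10 genes (horizontal axis, fibrotic over FLO, n = 6 per group) with its 95% interval from the edgeR fit. Dotted lines mark the fold threshold at 0.5 in either direction, and the intervals of *Slc1a2*, *Oat*, *Rnf43* and *Lgr5* lie below 0 while those of *Axin2* and *Znrf3* lie above it.

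Levels between genes were compared per kilobase of the longest annotated transcript. In FLO livers *Oat* was highest at 708 ± 162 CPM per kb (SD, n = 6), followed by *Glul* (373 ± 23.9), *Lect2* (121 ± 11.4), *Rhbg* (25.4 ± 7.38) and *Slc1a2* (12.2 ± 1.97). The pathway genes lay below them, with *Tbx3* at 5.99 ± 1.04, *Rnf43* at 5.71 ± 1.22, *Znrf3* at 1.57 ± 0.351, *Axin2* at 1.52 ± 0.186 and *Lgr5* at 0.818 ± 0.126 CPM per kb. Among neighbors in this order the ranges of *Tbx3* and *Rnf43* overlapped, as did those of *Znrf3* and *Axin2*. In fibrotic livers the order changed. *Glul* (381 ± 85.2 CPM per kb) and *Oat* (360 ± 68.3) had overlapping ranges, and *Slc1a2* (3.80 ± 1.72) overlapped both *Tbx3* (7.15 ± 2.19) and *Rnf43* (3.49 ± 0.418). *Lect2* (101.3 ± 33.5) and *Rhbg* (24.2 ± 9.03) kept their places, and *Axin2* (2.50 ± 1.07), *Znrf3* (2.29 ± 0.413) and *Lgr5* (0.537 ± 0.162) had the lowest means. The ranges of *Axin2* and *Znrf3* overlapped each other and those of *Rnf43* and *Slc1a2*, while that of *Lgr5* lay below all others.

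Promoter windows of 300 bases (250 before and 50 after a RefSeq start, build GRCm38.p6) were at hand for 6 of the 10 genes, in 7 windows. They were searched on both strands for CTTTGAT and CTTTGAA, 7-base cores that Tcf factors are known to bind. The windows of *Slc1a2* and *Lect2* held 1 match each, ATCAAAG, and the others held none. Over all 32851 windows of this length 8.65% held a match. Both windows with a match are shown, with the match in capitals, beside that of *Axin2*, a widely used Wnt target whose window had none. The *Slc1a2* window (chr2:102706188-102706487, plus strand) surrounds a RefSeq start that lies inside the annotated gene, and its match begins 207 bases before that start. The *Lect2* window is chr13:56548489-56548788 (minus strand), with its match 32 bases before the start. The *Axin2* window is chr11:108920099-108920398 (plus strand).
Slc1a2: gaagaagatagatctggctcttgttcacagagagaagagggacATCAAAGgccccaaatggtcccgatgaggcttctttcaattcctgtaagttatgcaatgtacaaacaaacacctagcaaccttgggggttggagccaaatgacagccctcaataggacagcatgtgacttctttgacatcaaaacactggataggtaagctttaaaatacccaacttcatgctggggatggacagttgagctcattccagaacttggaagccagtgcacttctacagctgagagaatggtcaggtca
Lect2: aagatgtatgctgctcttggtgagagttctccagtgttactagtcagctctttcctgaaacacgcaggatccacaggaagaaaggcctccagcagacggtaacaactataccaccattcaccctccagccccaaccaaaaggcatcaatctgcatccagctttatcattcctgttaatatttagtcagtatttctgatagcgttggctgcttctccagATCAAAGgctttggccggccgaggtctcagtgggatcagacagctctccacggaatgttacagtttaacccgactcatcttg
Axin2: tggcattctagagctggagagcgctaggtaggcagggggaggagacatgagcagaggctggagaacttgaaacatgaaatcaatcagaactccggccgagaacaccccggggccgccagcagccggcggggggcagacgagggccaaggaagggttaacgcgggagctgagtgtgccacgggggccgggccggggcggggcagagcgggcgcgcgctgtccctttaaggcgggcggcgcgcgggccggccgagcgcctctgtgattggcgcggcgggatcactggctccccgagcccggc
GC content was 45.7% in the *Slc1a2* window, 48.0% in that of *Lect2* and 70.0% in that of *Axin2*, against a median of 52.7% over all windows. The *Axin2* window held 31 CpG dinucleotides and the *Slc1a2* window 1, against a median of 7. A match is a run of letters and not a binding site.

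The members that handle glutamate and ammonia were examined first. Perivenous hepatocytes take up glutamate and ammonium and fix them into glutamine, and *Slc1a2*, *Rhbg*, *Oat* and *Glul* encode steps of this path.

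*Slc1a2* (ENSMUSG00000005089, chr2:102658659-102790784 on mm10) encodes the glutamate transporter GLT-1, also known as EAAT2. Its level ran from 101 over a median of 150 to 162 CPM in FLO livers and from 21.6 over a median of 39.4 to 72.2 CPM in fibrotic livers. Every fibrotic library lay below every FLO library. The FLO mean was 141 ± 22.9 CPM (SD, n = 6) and the fibrotic mean 44.1 ± 19.9 (SD, n = 6). *Slc1a2* thus fell 3.20-fold, with a log2 fold change (fibrotic over FLO) of -1.68 ± 0.26 (SE) at an adjusted p = 0.000115. At the low end of all genes tested, 2.36% had a smaller log2 fold change. The spread was wider in the fibrotic group, with a coefficient of variation of 45.1% against 16.2%. Libraries 4, 6 and 1 of the fibrotic group were lowest, and the call held in all 23 other fits at the same thresholds.

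*Oat* (ENSMUSG00000030934, chr7:132557478-132576398) encodes ornithine aminotransferase, a mitochondrial enzyme that turns ornithine toward glutamate. It ranged from 1030 over 1532 to 2029 CPM in FLO and from 561.7 over 785.5 to 965.0 CPM in fibrotic livers. The groups did not overlap, although FLO replicate 4 came close to fibrotic replicate 4. The FLO mean was 1524 ± 348.1 CPM (SD, n = 6) and the fibrotic mean 774.5 ± 146.9 (SD, n = 6). *Oat* fell 1.97-fold (log2 fold change -0.98 ± 0.16 SE, adjusted p = 0.000146), and replicate 1 was its lowest fibrotic library. *Fgfr2*, annotated on the same strand across the *Oat* locus, held at most 559 counts where *Oat* held at least 11583.

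*Glul* (ENSMUSG00000026473, chr1:153899944-153909723) encodes glutamine synthetase, which in normal liver is found in the few layers of hepatocytes next to the central vein. Fibrotic values were 821.5, 946.3, 1410, 881.6, 1300 and 1020 CPM in replicates 1 to 6. FLO values stayed between 951.8 and 1113 CPM. Thus 3 fibrotic libraries lay below the lowest FLO library and 2 lay above the highest. The fibrotic mean was 1063 ± 238.0 CPM (SD, n = 6) and the FLO mean 1040 ± 66.8 (SD, n = 6). Their log2 fold change was 0.03 ± 0.13 (SE) at an adjusted p = 0.854. The 95% interval ran from -0.25 to 0.31, so a change of the size seen for *Oat* lies outside it. What differed was the spread, with a coefficient of variation of 22.4% in fibrotic and 6.42% in FLO livers, a difference that was not tested.

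*Rhbg* (ENSMUSG00000104445, chr3:88242874-88254709) encodes an ammonium transporter of the basolateral hepatocyte membrane. Its level spanned 24.8 to 69.0 CPM in fibrotic and 34.2 to 70.0 CPM in FLO livers, with medians of 43.5 and 46.4 CPM. The groups overlapped almost entirely. The log2 fold change was -0.07 ± 0.25 (SE) at an adjusted p = 0.829 (95% interval -0.61 to 0.47), and its sign turned without fibrotic replicate 4 (0.07) or without FLO replicate 3 (0.01). *Gm38392*, which overlaps *Rhbg* on the same strand, held at most 44 counts where *Rhbg* held at least 530.

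**Figure D2:**
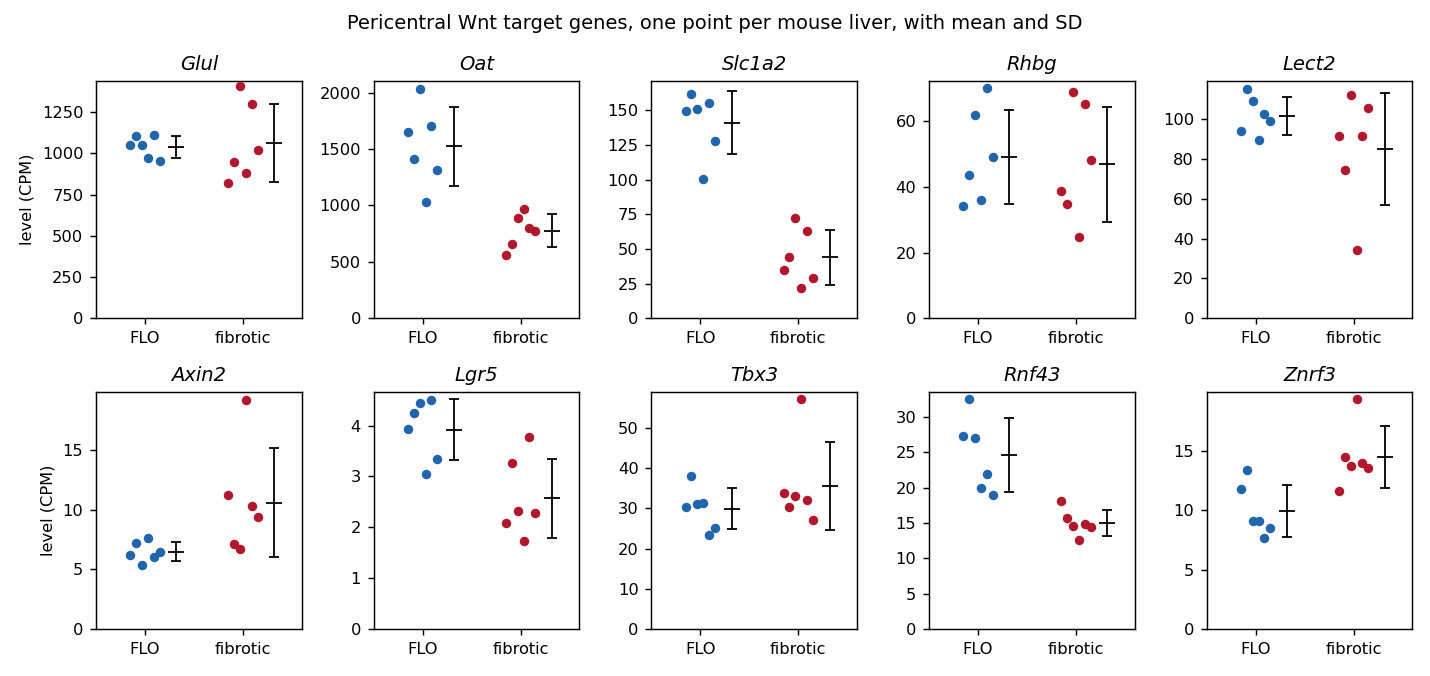
Level of each of the 10 genes in CPM (vertical axis, from 0) in every library, 6 FLO livers in blue and 6 fibrotic livers in red, with the mean and SD of each group beside the points. The groups do not overlap for *Oat*, *Slc1a2* and *Rnf43*, and fibrotic replicate 4 is the single high point of *Axin2* (19.2 CPM) and *Tbx3* (57.3 CPM) and the single low point of *Lect2* (34.0 CPM).

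*Lect2* (ENSMUSG00000021539, chr13:56542464-56548502) encodes a chemotactic protein that hepatocytes secrete. It ran from 89.4 over 101 to 115 CPM in FLO livers and from 34.0 over 91.6 to 112 CPM in fibrotic livers. A single library, fibrotic replicate 4, made most of the difference, since the other fibrotic libraries held between 74.4 and 112 CPM. The log2 fold change was -0.26 ± 0.21 (SE) at an adjusted p = 0.321 and became -0.09 (adjusted p = 0.495) without that library. The 95% interval over all libraries was -0.71 to 0.19.

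Of the feedback genes of the pathway, *Rnf43* fell and *Znrf3* rose. *Rnf43* and *Znrf3* encode related membrane ubiquitin ligases that remove Frizzled receptors, and both are Wnt targets. *Axin2* encodes a scaffold of the complex that degrades beta-catenin and is widely used as a readout of the pathway.

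*Rnf43* (ENSMUSG00000034177, chr11:87662722-87735539) ranged from 18.9 over 24.5 to 32.6 CPM in FLO and from 12.6 over 14.7 to 18.1 CPM in fibrotic livers. The groups did not overlap, by a margin of less than 1 CPM between fibrotic replicate 1 and FLO replicate 6. From its FLO mean of 24.6 ± 5.26 CPM (SD, n = 6), *Rnf43* fell 1.64-fold (log2 fold change -0.71 ± 0.13 SE, adjusted p = 0.00035). Like those of *Slc1a2* and *Oat*, this call held in all 23 other fits at the same thresholds.

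*Znrf3* (ENSMUSG00000041961, chr11:5276324-5444847) ranged from 7.64 over 9.11 to 13.4 CPM in FLO and from 11.6 over 13.8 to 19.4 CPM in fibrotic livers. Of the 6 fibrotic libraries 5 lay above the highest FLO library. The FLO mean was 9.93 ± 2.21 CPM (SD, n = 6) and the fibrotic mean 14.5 ± 2.60 (SD, n = 6), so *Znrf3* rose 1.46-fold (log2 fold change 0.54 ± 0.15 SE, adjusted p = 0.00642). This call was close to both thresholds. It was lost in 7 of the 12 fits without 1 library, those without fibrotic replicate 2, 4 (0.45, adjusted p = 0.0115) or 5 and those without FLO replicate 3 (0.52, adjusted p = 0.0151), 4, 5 or 6.

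Counts of 2 genes in the same library give a ratio that does not depend on how libraries are scaled. The pairs shown were chosen after the values had been seen and are given without a test. *Rnf43* over *Znrf3* lay between 0.652 and 1.56 in fibrotic and between 2.18 and 2.96 in FLO livers, with no overlap. *Slc1a2* over *Glul* was 0.104 to 0.147 in FLO and 0.0245 to 0.0512 in fibrotic livers, also apart. *Oat* over *Glul* overlapped slightly, at 0.616 to 1.09 against 1.06 to 1.93. *Rhbg* over *Glul* overlapped broadly.

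**Figure D3:**
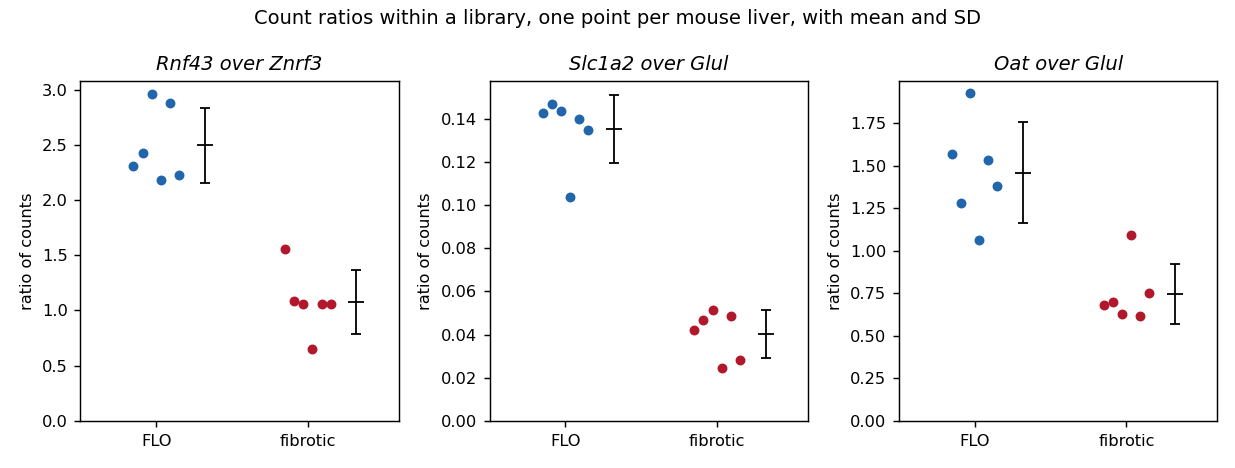
Ratio of the raw counts of 2 genes within each library (vertical axis, from 0), 6 FLO livers in blue and 6 fibrotic livers in red, with mean and SD. The fibrotic ratio of *Rnf43* over *Znrf3* averages 1.08 against 2.50 in FLO livers, and that of *Slc1a2* over *Glul* averages 0.0402 against 0.135.

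*Axin2* (ENSMUSG00000000142, chr11:108920349-108950783) ranged from 5.39 over 6.34 to 7.59 CPM in FLO and from 6.68 over 9.82 to 19.2 CPM in fibrotic livers. All 6 fibrotic libraries lay above the FLO median and 4 above the highest FLO library. The fibrotic mean was 10.6 ± 4.57 CPM (SD, n = 6) and the FLO mean 6.48 ± 0.794 (SD, n = 6). At a log2 fold change of 0.72 ± 0.22 (SE) the adjusted p = 0.0122 missed the threshold. Its adjusted p crossed 0.01 in DESeq2 (0.0059) and without fibrotic replicate 2 (0.00527) or 3 (0.00388). The value leaned on 1 library, being 0.47 (adjusted p = 0.0148) without fibrotic replicate 4.

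*Lgr5* (ENSMUSG00000020140, chr10:115450311-115587780) encodes an R-spondin receptor. It was the least abundant member, with 37 to 75 counts per fibrotic and 62 to 104 per FLO library. Its level ran from 1.73 over 2.30 to 3.78 CPM in fibrotic and from 3.04 over 4.09 to 4.50 CPM in FLO livers. All 6 fibrotic libraries lay below the FLO median and 4 below the lowest FLO library. The log2 fold change of -0.61 ± 0.20 (SE) missed the threshold (adjusted p = 0.017), and *Lgr5* passed it in DESeq2 (adjusted p = 0.00781) and without fibrotic replicate 5 (-0.74, adjusted p = 0.00453). At this depth, counting error is part of this spread.

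*Tbx3* (ENSMUSG00000018604, chr5:119670669-119684724) encodes a T-box transcription factor that beta-catenin is known to induce in hepatocytes. It ranged from 23.4 over 30.7 to 38.0 CPM in FLO and from 27.2 over 32.5 to 57.3 CPM in fibrotic livers. Only fibrotic replicate 4 lay above the highest FLO library. The log2 fold change was 0.25 ± 0.17 (SE) at an adjusted p = 0.219 (95% interval -0.10 to 0.61), and 0.07 without that library. The antisense gene *Tbx3os1* held at most 42 counts where *Tbx3* held at least 395, and the strand setting of the counting was not given in the sources used here.

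Read by library, the fibrotic group was not uniform. Fibrotic replicate 4 was the highest of its group for *Oat*, *Axin2*, *Tbx3* and *Znrf3* and the lowest for *Slc1a2*, *Rhbg*, *Lect2*, *Lgr5* and *Rnf43*. Against the FLO mean it stood at 1.56 for *Axin2*, -2.69 for *Slc1a2* and -1.57 for *Lect2* on the log2 CPM scale. The same library had the lowest summed hepatocyte markers (81221 CPM, against 101068 to 125800 in the other fibrotic libraries) and the highest summed Kupffer cell markers (722.4 CPM, against 341.3 to 579.8). Their part in the result was not tested. Fibrotic replicate 3 stood nearest the FLO mean for *Slc1a2* (-0.95) and *Axin2* (0.05) and was the highest library for *Glul*. Without both FLO replicate 3 and fibrotic replicate 4, *Slc1a2* (-1.51), *Oat* (-0.94) and *Rnf43* (-0.63) were still called lower, and no member was called higher.

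**Figure D4:**
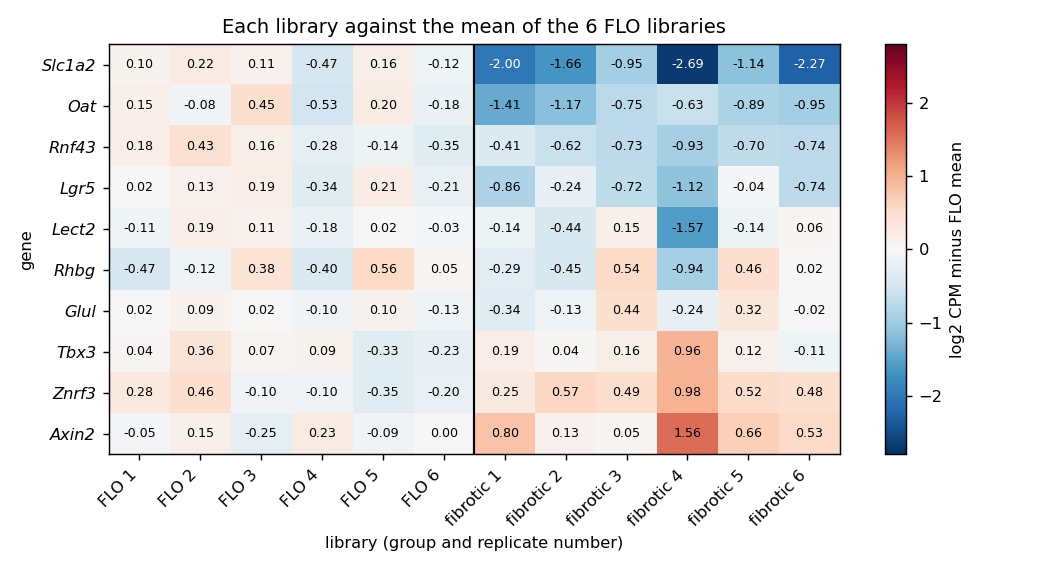
Log2 CPM of each gene (rows) in each library (columns, FLO left of the line and fibrotic right of it) minus the mean of the 6 FLO libraries, as color and printed value. *Slc1a2* is at -0.95 or below in every fibrotic library, *Glul* runs from -0.34 to 0.44 there, and fibrotic replicate 4 holds both the lowest value (-2.69, *Slc1a2*) and the highest (1.56, *Axin2*).

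Whether the other members varied with *Glul* from mouse to mouse was examined within each group, since a relation over all 12 libraries would mostly carry the group difference. Of 18 relations, 9 genes in 2 groups, 0 had an adjusted p of 0.05 or less by exact permutation of Pearson's r, and 3 had an unadjusted p at or under that value. Those were *Lgr5* in FLO livers (Pearson r = 0.90, exact permutation p = 0.0236, adjusted 0.192, and Spearman rho = 0.89, exact p = 0.0333, adjusted 0.30), *Slc1a2* in FLO livers (r = 0.83, exact p = 0.0319, adjusted 0.192, and rho = 0.89, exact p = 0.0333, adjusted 0.30) and *Rhbg* in fibrotic livers (r = 0.87, exact p = 0.0306, adjusted 0.192, and rho = 0.83, exact p = 0.0583, adjusted 0.35). These r became 0.46, 0.82 and 0.47 when the 2 libraries most distant in *Glul* were left out, so the first and last leaned on those libraries. *Axin2* had an r with *Glul* of -0.53 in fibrotic (exact p = 0.292, adjusted 0.534) and -0.30 in FLO livers (exact p = 0.561, adjusted 0.717), neither past the test. On the same leave-out these became -0.47 and 0.54, so the sign in FLO livers turned. Among the 11205 genes at or above 1 in mean log2 CPM, the 5 whose mean of both within-group r with *Glul* was highest were *Scamp3* (0.95), *Gulo* (0.87), *Mrps30* (0.85), *Slc1a2* (0.83) and *Cldnd1* (0.82), as a description from 6 libraries per group. For *Slc1a2* the fibrotic part of this likeness leaned on 2 libraries, since its r there was 0.82 over 6 libraries and 0.07 without the 2 most distant in *Glul*. *Gulo* encodes the last enzyme of vitamin C synthesis.

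The genes upstream of the 10 targets were described next. Among Wnt ligands, R-spondins and the genes *Wls* and *Porcn* needed for Wnt secretion, 10 of 25 were tested. Of these, 0 were called by edgeR, 0 by DESeq2 and 0 by limma-voom, and 3 had an unadjusted p under 0.05 in edgeR, as 57.6% of all genes tested did. The lowest adjusted p was that of *Porcn* (0.58, adjusted p = 0.0112), and the third of them after *Wnt5b* (0.41, adjusted p = 0.0315) was *Wnt9b*. *Porcn* and *Wnt5b* were named after their values were seen. *Rspo3*, the R-spondin of the central vein, had a fibrotic mean of 3.04 ± 0.866 CPM (SD, n = 6) and a FLO mean of 2.77 ± 0.531 (SD, n = 6), with an adjusted p = 0.603 for the log2 fold change of 0.13. *Wnt2* had a log2 fold change of -0.18 (adjusted p = 0.507) and *Wnt9b* of -0.60 (adjusted p = 0.0537), both Wnt ligands of liver endothelium. Of 15 endothelial markers 1 was called, *Kdr* (-0.58), beside the 29.9% called over all genes tested. Their log2 fold change was negative for 11 and positive for 4. The groups did not overlap for 3 of the 15, all lower, against 30.4% of all genes tested. The summed level of these markers was 276.0 to 361.4 CPM in fibrotic and 337.6 to 377.9 CPM in FLO livers.

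Receptors and signal carriers came next. Of 11 tested receptors and co-receptors 2 were called, both higher, beside the 29.9% called over all genes tested. *Lgr4*, a further R-spondin receptor, rose from 39.4 ± 4.91 to 66.9 ± 9.57 CPM (SD, n = 6 each), or 0.76 ± 0.11 (SE) on the log2 scale (adjusted p = 2.53e-05), with no overlap between groups, beside the -0.61 of *Lgr5*. *Fzd6* rose as well (1.02, adjusted p = 0.00129). The co-receptor *Lrp5* (0.46, adjusted p = 0.00112) had no overlap between groups but stayed under the fold threshold. The co-receptor *Lrp6* (-0.09) and the receptor *Fzd5* (0.15) stayed under it as well. Among the 11, the log2 fold change was positive for 5 and negative for 6. Of 17 tested genes of beta-catenin signal transduction 2 rose and 2 fell, so neither list exceeded that background. *Axin1*, the constitutive counterpart of *Axin2*, rose by 0.72 on the log2 scale (adjusted p = 2.02e-05), and the co-activator gene *Bcl9l* was also called higher (adjusted p = 2.59e-05). *Tcf7* fell by 0.95 on the log2 scale, and *Tcf7l2*, the main Tcf gene of hepatocytes, fell by 0.50 (adjusted p = 0.000757), at the edge of the fold threshold. *Ctnnb1*, the beta-catenin gene, had a log2 fold change of 0.45 (adjusted p = 0.00176) and *Apc* of 0.46 (adjusted p = 0.00287), both under the fold threshold.

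Wnt inhibitors and targets outside the 10 genes were described in the same way. Of 9 tested inhibitors 2 rose and 1 fell, a number near the 29.9% of all genes. The one that fell was *Notum*, a secreted enzyme that inactivates Wnt proteins and is itself a pericentral target. It held 22.5 to 26.1 CPM in FLO and 1.97 to 9.38 CPM in fibrotic livers. Its log2 fold change was -2.04 ± 0.26 (SE) at an adjusted p = 1.69e-05. The transcriptional co-repressor gene *Tle3* (1.09) and *Ctnnbip1* (0.53), an inhibitor of beta-catenin, rose. *Nkd1*, another feedback inhibitor, was at -0.14 (adjusted p = 0.504). Of 9 tested general Wnt targets 3 rose and 3 fell, a larger share than the 29.9% of all genes. *Tnfrsf19* fell by 1.64 on the log2 scale beside *Notum* and *Tcf7*, while *Sp5* (1.01, adjusted p = 0.0032), *Cd44* (1.01) and *Sox9* (1.16) rose. *Sp5* and *Axin2*, both direct targets in many tissues, had positive values, as did *Znrf3*, *Cd44* and *Sox9*. *Notum*, *Tnfrsf19*, *Tcf7*, *Nkd1*, *Lgr5* and *Rnf43* had negative ones. *Axin2*, *Nkd1* and *Lgr5* were not called. The groups overlapped for each of these genes but *Notum*, *Tnfrsf19* and *Rnf43*.

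**Figure D5:**
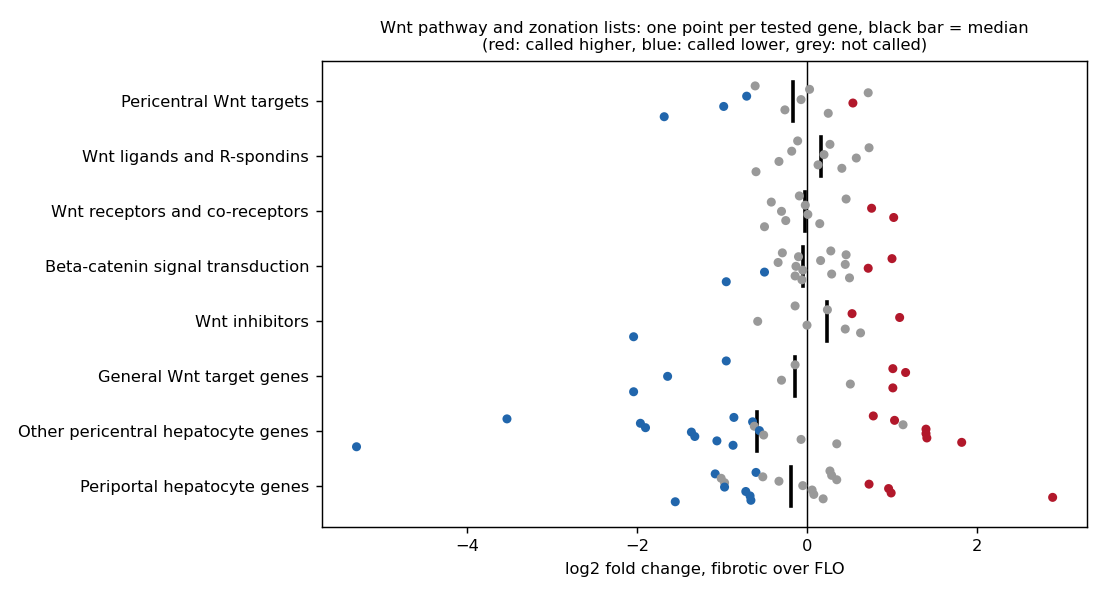
Log2 fold change (horizontal axis, fibrotic over FLO) of each tested gene in the 10-gene group and in 7 lists of pathway and zonation genes, with the list median as a black bar. Called genes appear on both sides of 0 in the 10-gene group and in 5 of the lists, receptors have called genes only on the right, and ligands have none.

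The other zonation genes placed the 10 targets among their neighbors in the lobule. Of all genes tested, 14.0% were called lower and 15.9% higher, with a median log2 fold change of 0.03. Of 22 other pericentral hepatocyte genes 11 fell and 6 rose, with a median of -0.59. Those that fell most were *Rgn* (-5.30), *Nr1i3* (-3.53), which encodes the nuclear receptor CAR, *Pon1* (-1.96) and *Cyp1a2* (-1.90). Those that rose most were *Car2* (1.82), *Slc13a3* (1.41), *Gstm3* (1.40) and *Aldh1a1* (1.40). *Cyp2e1* (-0.62, adjusted p = 0.0117) and *Cyp7a1* (1.13, adjusted p = 0.0102) were not called. Of the listed pericentral genes, *Gstm3*, *Cyp2c29* and *Cyp2a5* belong to families of near-identical copies, and their values are uncertain. Of 22 periportal genes 7 fell and 4 rose, with a median of -0.19. *Cps1*, the first enzyme of the urea cycle, rose (0.73, adjusted p = 0.00646) while the later enzymes *Ass1* (-0.67, adjusted p = 0.00839) and *Asl* (-0.72, adjusted p = 0.0034) fell. *Gls2*, the glutaminase that opposes *Glul*, was at 0.08 (adjusted p = 0.74). The periportal genes that fell most were *Uroc1* (-1.55), *Pck1* (-1.08), *Ftcd* (-0.97) and *Asl*, and *Cdh1* (2.89), *Aldh1b1* (0.99), *Sdsl* (0.96) and *Cps1* rose. Neither zone moved as a block.

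Markers of other cells moved with the comparison and are given beside it. For reference, edgeR called 29.9% of all genes tested, 14.0% lower and 15.9% higher. Of the cholangiocyte markers 6 of 9 tested genes were called by edgeR, all higher, and 4 by limma-voom, none of the 10 listed was at 0, and their summed level was 101.5 to 313.4 CPM in fibrotic and 61.4 to 105.6 CPM in FLO livers. Of 10 Kupffer cell markers 9 were higher, with sums of 341.3 to 722.4 against 288.8 to 330.6 CPM. Of 10 stellate cell markers 1 was called by edgeR, *Lrat* (0.72), and 0 by limma-voom, with sums of 413.1 to 566.7 against 381.8 to 483.4 CPM. Lymphocyte markers were near 0, with 2 of 10 tested and sums of at most 6.40 CPM. Hepatocyte markers had 3 genes higher and 1 lower of 12, and *Alb* (-0.31, adjusted p = 0.0803) and *Hnf4a* (-0.08, adjusted p = 0.536) were not called. Proliferation genes had 5 of 9 lower, at low levels, with sums of 5.45 to 14.4 CPM in fibrotic and 16.3 to 32.1 CPM in FLO livers. The part of these cells in the values of *Axin2*, *Znrf3*, *Sp5*, *Sox9* and *Cdh1* was not tested. When libraries were scaled to the hepatocyte markers, *Slc1a2* (-1.61), *Oat* (-0.88) and *Rnf43* (-0.65) were called lower and *Znrf3* was not called (0.63, adjusted p = 0.0108). Under that scaling *Slc1a2* was the 1 gene of the 10 whose groups did not overlap, where 28.5% of all genes tested did not.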

How the data were processed

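Whole-liver poly(A) RNA-Seq was analyzed from 12 mice, and groups and replicate numbers were read from the sample titles. The deposited table holds raw counts, whole numbers for each Ensembl gene and library that were not normalized. The submitters' processing notes name bcl2fastq, STAR 2.7.3a and mm10, while the study's methods name PISCES. The mouse annotation and the strand setting were not given in the sources used here. Reads of overlapping genes may therefore have been split or lost, and the counts of such genes are given beside *Oat*, *Rhbg* and *Tbx3*. For *Rnf43*, *1110028F11Rik* held at most 24 counts where *Rnf43* held at least 270. *Teddm2* held at most 29 counts where *Glul* held at least 16942, and *Gm13872* held at most 1 where *Slc1a2* held at least 461. *Gm11670* at *Axin2* and *A930009A15Rik* at *Lgr5* held 0.

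Symbols matched 51745 of 56205 identifiers, and those without one held 0.0587% of counts. Positions and transcript lengths came from GENCODE M21 (GRCm38, the build of mm10). Low counts were filtered with filterByExpr, libraries were scaled by TMM, and the groups were compared by the robust quasi-likelihood F-test of edgeR 4.0.16 (R 4.3.3). P-values were adjusted by Benjamini-Hochberg over all 13416 genes tested. As in the study's methods, a call needed an FDR of at most 0.01 and a log2 fold change beyond 0.5 in either direction. The SE of a log2 fold change is its absolute value over the square root of F. CPM values use TMM-scaled library sizes, with a prior count of 2 on the log2 scale. SDs between libraries include the counting error. Libraries of a group differed by more than sampling noise (smallest chi-square per degree of freedom 10.3), so each counted as 1 replicate. The fit was tested on simulated data.

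Correlations within groups used exact permutation over 6 libraries. Alternatives were RLE (the size factors of DESeq2), upper quartile, TMM without the 50 genes with most counts, scaling to hepatocyte markers, a minimum of 10 counts per library, no filter on low counts, the replicate number as a block, a fit without robust estimation, DESeq2 1.42.0, limma-voom (limma 3.58.1), other thresholds and leaving out each library. Leaving out FLO replicate 3 and fibrotic replicate 4 together was chosen after seeing the data. The labels give no batch, so no within-batch value could be made.

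The 10 genes and the lists were chosen with earlier results of these data known. Set to be named were the 10 genes, in each list at most the 4 called genes with the largest absolute change in each direction, and a set of pathway and zonation genes (*Ctnnb1*, *Tcf7l2*, *Apc*, *Axin1*, *Rspo3*, *Wnt2*, *Wnt9b*, *Lgr4*, *Lrp5*, *Lrp6*, *Fzd5*, *Notum*, *Nkd1*, *Sp5*, *Cyp2e1*, *Cyp1a2*, *Cyp7a1*, *Cps1*, *Ass1*, *Gls2*, *Cyp2f2*, *Alb*, *Hnf4a*, *Xist* and *Ddx3y*). Not all of these are given in the text. The periportal gene *Cyp2f2* was called lower (-0.66, adjusted p = 0.00299). For *Glul*, the 5 genes with the most similar pattern were also named.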

Additional observations from a re-analysis of the deposited data

Results flagged for a closer look

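The 10 genes and the other genes set to be named were examined if they had passed the low-count filter, which *Xist* had not. For each such gene and group, the distance of the outermost of 6 libraries from the next one was expressed as a ratio to the group's range (log2 CPM). Of 148 such ratios 10 passed Dixon's 95% critical value, where chance would give 7.4. The ratios share libraries and are not independent, so that number is only a rough guide. Fibrotic replicate 4 held 7 of the 10. Among the 10 Wnt target genes, *Lect2* was lowest (ratio 0.658) and *Tbx3* highest (0.714) in that library, which makes 2 of 20 ratios. In the same library the beta-catenin gene *Ctnnb1* (0.688), its co-activator *Bcl9l* (0.702) and the Kupffer cell gene *Marco* (0.673) were highest, and the ligand gene *Wnt2* (0.699) and the inhibitor gene *Ctnnbip1* (0.686) were lowest. Elsewhere, *Sp5* was lowest in fibrotic replicate 2 (0.6254) and *Cyp7a1* in fibrotic replicate 5 (0.638). The Y-linked gene *Ddx3y* was lowest in FLO replicate 3 (0.946), the library with 3773 counts of *Xist*.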

How the results depend on the processing

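*Oat* (-1.07 to -0.88), *Slc1a2* (-1.87 to -1.51) and *Rnf43* (-0.78 to -0.62) were called lower in all 23 alternatives at the same thresholds. Over all genes, 4012 were called, 6994 at an FDR of 0.05 with no fold threshold, 1697 with an absolute log2 fold change over 1, and 3798 to 4093 without 1 library. Members called lower numbered 3, 1 with the fold threshold at 1, and 3 to 4 without 1 library. Members called higher numbered 1. They became 0 with scaling to hepatocyte markers, with the fold threshold at 1 and without both FLO replicate 3 and fibrotic replicate 4, 2 in DESeq2 and at an FDR of 0.05, and 0 to 2 without 1 library. Members without overlap went from 3 to 1 with scaling to hepatocyte markers, which moved the median of all genes to 0.10. *Znrf3* lost its call in 10 of 23 alternatives (0.42 to 0.64, adjusted p up to 0.0237), *Axin2* gained one in 4 and *Lgr5* in 3. The sign of *Glul* turned without fibrotic replicate 3 or 5 (range -0.06 to 0.10 without 1 library). That of *Rhbg* turned with scaling to hepatocyte markers (0.00), without both libraries (0.14) and in fits without 1 library (-0.21 to 0.07). The causes were not tested. With the replicate number as a block 3780 genes were called, and of the members 4 lower (*Lgr5* added at -0.64, adjusted p = 0.00951) and 1 higher (*Axin2* at 0.64, adjusted p = 0.00897, in place of *Znrf3* at 0.55, adjusted p = 0.0116). Same-numbered libraries did not deviate together (correlations -0.162 to 0.104), and no library matched its own number best. This check of expression cannot show whether the mice were paired by design. Depth limits *Lgr5* most, at 37 to 104 counts per library.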
